A study of Mus musculus with 33 samples.

Results

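Oligodendrocytes wrap axons in myelin, a stack of membrane layers held together by a small set of abundant proteins and by the galactolipids galactosylceramide and sulfatide. They arise from precursor cells that carry the receptor encoded by Pdgfra, pass through a short newly formed stage, and switch on the myelin program under the transcription factors Olig1, Olig2, Sox10 and Myrf. In the hippocampus the lineage sits mainly in the alveus and in the fibre layers of the CA1 subregion, so a CA1 dissection carries its transcripts together with those of neurons. Here 33 genes of this lineage were described: 8 of compact myelin and its junctions, 8 of the myelin surface and of the processes, 5 of lipid, metabolite and iron handling, 7 regulators of transcription and RNA, and 5 of precursors and newly formed cells. They were chosen as a list of names and looked up by gene ID and symbol among the 38355 genes of the count files and the 40678 loci of the FPKM files. All 33 were found in both kinds of file, and all 33 passed the filter on low values in both.

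RNA was sequenced from the microdissected CA1 of single mice treated with JQ1 or vehicle. The compound JQ1 fits into the acetyl-lysine pocket of the BET proteins, readers of acetylated chromatin, and displaces them from it. APP_JQ1 (n = 6) and APP_vehicle (n = 6) were mice of the APP/PS1-21 line, in a C57B/6 background, at 8 to 10 months, whose transgenes, among them mutant human APP, are driven by the neuronal Thy1 promoter. APP_JQ1 received 50 mg/kg of JQ1 i.p. for 10 days, and APP_vehicle received 10% DMSO i.p. for 10 days. WT_vehicle mice (values for n = 4, replicates 1, 3, 4 and 5) had the same age and vehicle. Their titles name them WT, although the strain entry of the labels is that of the transgenic line. youngWT_JQ1 (n = 8) and youngWT_vehicle (n = 8) were C57B/6JRj mice of 3 months given 50 mg/kg of JQ1 or 10% DMSO i.p. for 13 days. By the study's methods the transgenic mice were females and the purchased young mice males, so age, sex, genotype, number of injections and pipeline differed together between the aged and the young experiment and cannot be told apart. No label said how libraries were assigned to preparation days.

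The 16 aged libraries held 14605459 to 25339482 counted reads, and a count of 3 corresponded to 0.118 to 0.205 CPM, the counts scaled to a common library size. The depth of the 16 young libraries is unknown, since only FPKM (read fragments scaled by transcript length and library size) were used. The library labelled APP_JQ1 replicate 4 went against its label. It had 1781 CPM of App against 2070 to 2716 in the other 11 APP libraries and 1853 to 1992 in WT_vehicle, 820 CPM of Thy1 against 1618 to 2342 and 841 to 1070, and 0 CPM of the plaque-associated microglial gene Cst7 against 13.7 to 55.6 and 0 to 0.245. Most counts, calls and tested relations that rest on APP_JQ1 are therefore given with and without it. Those given only once include it, as do values per mouse, medians and ranges unless stated. WT_vehicle replicate 4 held 3065 CPM of the choroid plexus transcript Ttr, against 9.44 to 21.3 in the other 3 WT_vehicle libraries. The markers of the label's cell lineage were present in every library: Mbp ranged from 1876 to 3615 CPM and Pdgfra from 57.2 to 84.2 CPM in the aged mice. In bulk tissue a lower value of such a gene can come from fewer cells or from less RNA per cell, and the measurement cannot tell these apart.

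Promoter sequences are shown for 4 members whose transcripts differed in one description given further on. This is the Pearson's r of each member's deviations with those of the myelin basic protein gene Mbp over the 16 aged mice. It was 0.79 for Mobp, 0.82 for Cldn11 and 0.79 for Mog, and -0.03 for Pdgfra. These 4 were not the extremes, since r was 0.86 for Mag and -0.37 for Gjb1. The sequences are those of RefSeq for GRCm38.p6, 5′ to 3′ on the strand of the gene, and cover 215 bases for Mobp and 250 bases for the others upstream of the annotated start. Capitals mark letters of the motifs searched on both strands, which were ACAAAG and AACAAT (SOX family), CAGCTG and CATCTG (E boxes), TATAAA, and CCAAT, and which do not overlap in these windows. Mobp lies at chr9:120149492-120149706 (plus strand), Cldn11 at chr3:31149670-31149919 (plus), Mog at chr17:37023399-37023648 (minus) and Pdgfra at chr5:75152001-75152250 (plus).
Mobp: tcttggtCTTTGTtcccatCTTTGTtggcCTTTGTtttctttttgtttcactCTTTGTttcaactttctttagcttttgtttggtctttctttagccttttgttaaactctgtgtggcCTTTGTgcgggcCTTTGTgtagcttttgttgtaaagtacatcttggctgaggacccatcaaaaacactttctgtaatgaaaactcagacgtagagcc
Cldn11: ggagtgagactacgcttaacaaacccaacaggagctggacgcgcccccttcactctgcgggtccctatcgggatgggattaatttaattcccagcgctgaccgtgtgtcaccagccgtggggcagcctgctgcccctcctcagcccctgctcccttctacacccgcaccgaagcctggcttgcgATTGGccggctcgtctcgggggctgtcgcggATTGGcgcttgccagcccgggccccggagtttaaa
Mog: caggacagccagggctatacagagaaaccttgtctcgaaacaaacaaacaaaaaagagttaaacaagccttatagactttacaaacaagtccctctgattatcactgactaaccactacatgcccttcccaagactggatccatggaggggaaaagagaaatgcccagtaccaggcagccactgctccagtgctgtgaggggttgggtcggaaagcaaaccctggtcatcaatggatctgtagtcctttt
Pdgfra: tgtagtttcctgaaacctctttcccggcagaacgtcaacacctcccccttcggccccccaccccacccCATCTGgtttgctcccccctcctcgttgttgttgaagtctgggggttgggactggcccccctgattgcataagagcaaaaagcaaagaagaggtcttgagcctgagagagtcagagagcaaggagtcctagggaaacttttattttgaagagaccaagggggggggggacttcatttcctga
The Mobp window held 6 matches to ACAAAG on the reverse strand (read as CTTTGT), the Cldn11 window held 2 reverse matches to CCAAT, the Pdgfra window held 1 match to CATCTG, and the Mog window held none of the letters searched. RefSeq promoters were matched for 24 of the 33 members (34 promoters). ACAAAG was present in 9 of these 34 (26.5%) and in 16.5% of all 32851 promoters, AACAAT in 17.6% and 9.42%, CATCTG in 20.6% and 14.4%, CAGCTG in 5.88% and 13.0%, TATAAA in 8.82% and 12.4%, and CCAAT in 44.1% and 33.9%. A match of letters is a description of the window and not a binding site.

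To order the members by level, aged counts were divided by the exonic length of the gene (CPM per kilobase) and the young files were read as FPKM. In WT_vehicle Mbp, the structural protein that compacts the cytoplasmic faces of myelin, stood at 342 ± 22.1 CPM per kilobase (SD, n = 4), above 99.7% of the 16770 genes ranked. Mobp, another basic protein of compact myelin, followed with 101 ± 9.06, and Plekhb1, a membrane-associated protein with a pleckstrin homology domain, with 89.4 ± 6.61; the mean ± SD ranges of these neighbours overlapped. Mal (73.2 ± 8.26), a proteolipid of myelin rafts, Cnp (70.2 ± 11.9), the phosphodiesterase of uncompacted myelin, and Cldn11 (60.9 ± 6.45), the tight junction protein of the sheath, formed the next set, whose SDs also overlapped. The lower end held genes of early stages and regulators. Nkx6-2, a homeobox factor of maturing oligodendrocytes, was at 3.34 ± 0.62 CPM per kilobase, Cspg4, the NG2 proteoglycan of precursors, at 1.95 ± 0.32, and Enpp6, a choline phosphodiesterase of newly formed cells, at 0.649 ± 0.183. In youngWT_vehicle the order by FPKM also began with Mbp (1256 ± 225, n = 8), Mobp (330 ± 56.3) and Plekhb1 (164 ± 19.3) and ended with Enpp6 (2.70 ± 0.569) and Cspg4 (2.11 ± 0.217).

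**Figure D1:**
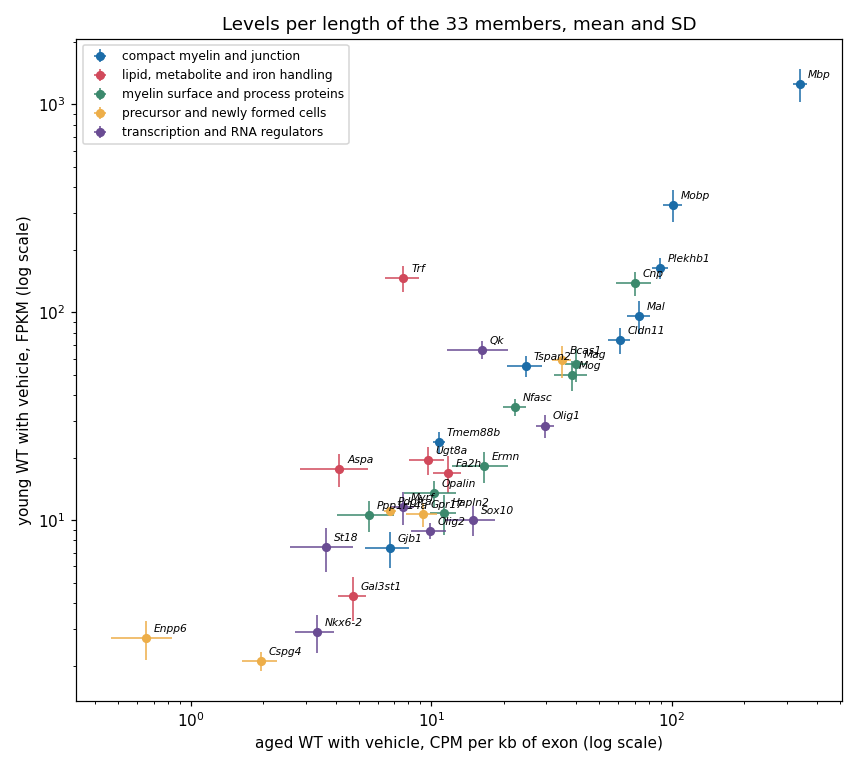
Level per length of the 33 members in aged WT_vehicle (CPM per kilobase of exon) and youngWT_vehicle mice (FPKM), on log axes, as group means. Mbp lies highest on both scales (342 CPM per kilobase and 1256 FPKM), and Trf lies far higher among the young values (146 FPKM) than among the aged ones (7.66 CPM per kilobase).

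Trf was the member whose place differed most between the files. This gene encodes transferrin, the iron carrier that oligodendrocytes make in abundance. It held place 23 of 33 in WT_vehicle (7.66 CPM per kilobase, above 63.1% of genes ranked) and place 4 in youngWT_vehicle (146 FPKM, above 97.3% of loci ranked). Of its 3320 exonic bases at chr9:103204001-103230444 (GRCm38, minus strand), 2108 (63.5%) were shared on the same strand with the predicted gene Gm20425, which was at 0 counts in all 16 aged libraries. The young files list Trf only within a joint locus with Gm20425 and Srprb. The aged Trf count therefore rests on the part of the gene that is not shared, and its level is not comparable with the young one.

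The effect of JQ1 in the transgenic mice was asked first, as APP_JQ1 against APP_vehicle. None of the 33 members passed an adjusted p of 0.05 by edgeR (quasi-likelihood, Benjamini-Hochberg over 16962 genes), where 1.08% of all genes did (lowest adjusted p of a member 0.122). At an unadjusted p under 0.05 there were 9 members, 4 with higher and 5 with lower estimates in APP_JQ1, a share of the 33 read against 17.6% of all genes. No member separated the groups without overlap (0.878% of all genes were higher and 1.15% lower in every APP_JQ1 mouse). Estimates lay above 0 for 17 members (49.8% of all genes) and below 0 for 16, with a median log2 fold change of 0.04 (all genes 0.00). DESeq2, which called more genes in all than edgeR (totals in the last paragraph), called 1 member, Nkx6-2, so 1.08% is not the background of that call. Its share of all genes is not given here, so the call is not read as a result about the members. Every one of the 33 95% intervals lay within a 2-fold change in either direction, reaching a median of 0.30 to either side of the estimate on the log2 scale. Without the library labelled APP_JQ1 replicate 4 again 0 members passed in edgeR (lowest adjusted p 0.233), 7 had an unadjusted p under 0.05, and 17 estimates lay above 0 (median 0.03). With a correction for GC content and length 0 passed and 3 had an unadjusted p under 0.05. The shares of all genes at that p in these alternative fits are not given here, so 7 and 3 are not read against a background.

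Mbp itself ran from 1876 to 3615 CPM in APP_JQ1 (median 2691), from 2762 to 3174 CPM in APP_vehicle (median 2967), and was 3132, 2681, 2849 and 2917 CPM in the 4 WT_vehicle mice. The APP_JQ1 mice thus spread above and below all APP_vehicle mice, with 3 of them (replicates 3, 4 and 5) below the lowest vehicle value and 2 (replicates 1 and 6) above the highest. The log2 fold change of Mbp was -0.11 (SE 0.13, 95% interval -0.38 to 0.15, edgeR adjusted p = 0.690). Pdgfra, the receptor for platelet-derived growth factor on precursors, ran from 69.8 to 84.2 CPM in APP_JQ1 (median 74.2), from 57.2 to 76.7 CPM in APP_vehicle (median 65.1), and was 62.2, 71.8, 67.6 and 68.1 CPM in WT_vehicle. The groups overlapped, with a log2 fold change of 0.19 (SE 0.08, edgeR adjusted p = 0.208).

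The 3 members with the smallest p were a transcription factor and the 2 enzymes that build the myelin galactolipids. Nkx6-2 lay between 3.89 and 8.00 CPM in APP_JQ1 (median 5.47), between 6.95 and 9.98 CPM in APP_vehicle (median 7.73), and at 6.13, 6.06, 5.23 and 8.03 CPM in WT_vehicle. A single APP_JQ1 mouse, replicate 6, overlapped the vehicle range. Its log2 fold change was -0.56 (SE 0.18, edgeR adjusted p = 0.122), and 12.9% of its exonic bases lie opposite exons of Inpp5a on the other strand. Ugt8a, the transferase that makes galactosylceramide, lay between 29.7 and 52.1 CPM in APP_JQ1 (median 47.2), between 25.0 and 38.1 CPM in APP_vehicle (median 33.6), and at 54.2, 37.6, 41.2 and 41.9 CPM in WT_vehicle. In APP_JQ1 4 of 6 mice were above all APP_vehicle mice, and the log2 fold change was 0.43 (SE 0.15, edgeR adjusted p = 0.152). Gal3st1, the sulfotransferase that turns galactosylceramide into sulfatide, lay between 5.44 and 9.86 CPM in APP_JQ1 (median 7.40), between 9.22 and 12.2 CPM in APP_vehicle (median 9.77), and at 8.42, 8.71, 10.6 and 10.9 CPM in WT_vehicle. Its estimate had the opposite sign to that of Ugt8a (-0.40, SE 0.14, edgeR adjusted p = 0.162). Without the library labelled APP_JQ1 replicate 4 the log2 fold changes of Nkx6-2, Ugt8a and Gal3st1 were -0.52, 0.39 and -0.36. With the correction for GC content and length they were smaller, at -0.21, 0.18 and -0.18 (edgeR adjusted p of 0.760, 0.744 and 0.696). The remaining members with an unadjusted p under 0.05 in edgeR were Hapln2 (-0.36), a link protein of nodal matrix, Myrf (-0.31), the membrane-bound activator of myelin genes, Nfasc (-0.31), the adhesion molecule of nodes and paranodes, St18 (0.38), a zinc finger factor, Qk (0.33), an RNA-binding protein needed for myelin transcripts, and Pdgfra.

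**Figure D2:**
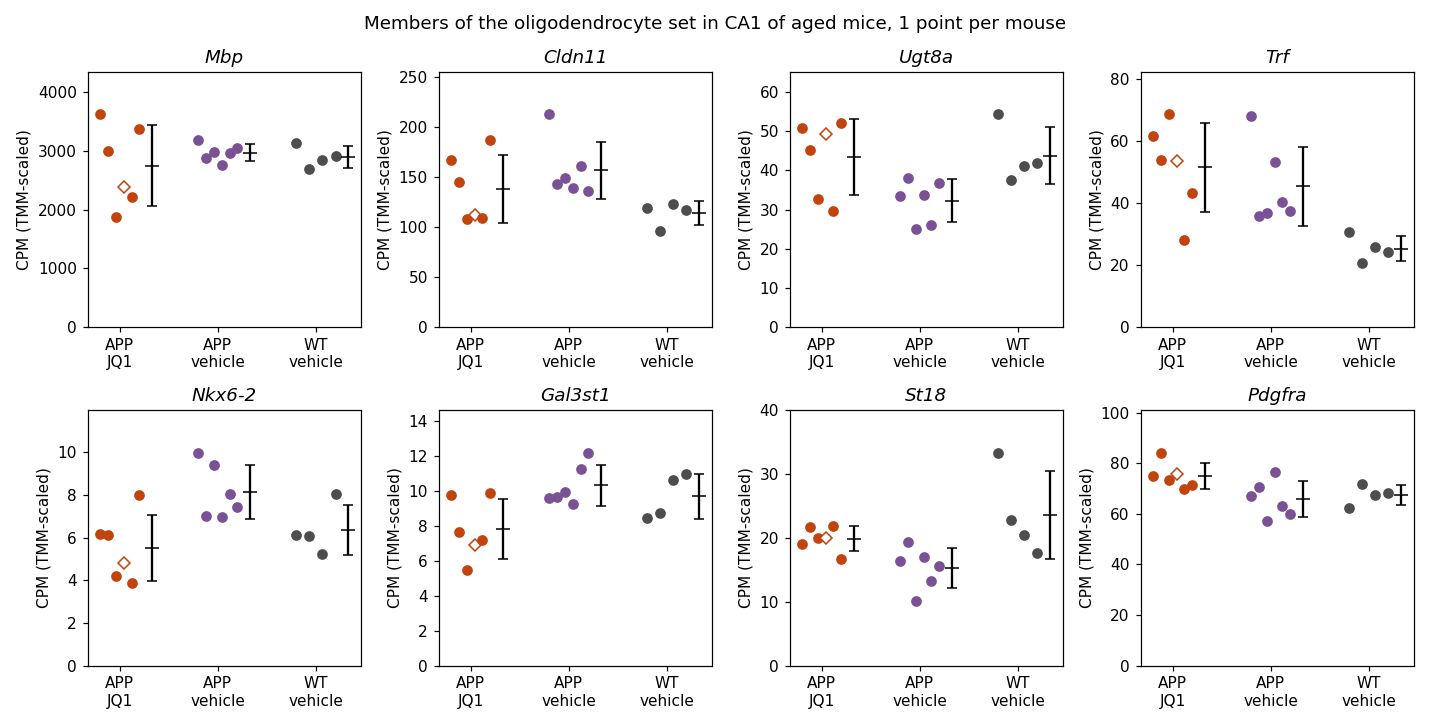
Level in each aged mouse (CPM) of 8 members, by group, where each point is 1 mouse, the black bar gives the mean ± SD and the open diamond is the library labelled APP_JQ1 replicate 4. Mbp spreads from 1876 to 3615 CPM in APP_JQ1 and from 2762 to 3174 CPM in APP_vehicle, and all Trf values of APP_vehicle (36.1 CPM and above) lie above those of WT_vehicle (30.7 CPM and below).

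By role, the 8 genes of compact myelin and junctions had 4 estimates above and 4 below 0 (median log2 fold change 0.00). The 8 genes of the myelin surface and processes had 3 above and 5 below (median -0.09), among them Mog (-0.02) and Mag (-0.30), 2 immunoglobulin-type proteins of the outer and the inner myelin surface, and Cnp (0.04). Of the 5 genes of lipid, metabolite and iron handling 3 were above 0 (median 0.18), with Aspa, which splits N-acetylaspartate, at 0.19 and Fa2h, the hydroxylase of galactolipid acyl chains, at -0.09. The 7 regulators had 3 above 0 (median -0.16), with Olig1 at -0.16, Olig2 at 0.13 and Sox10 at -0.33. Of the 5 precursor and newly formed genes 4 were above 0 (median 0.19), with Gpr17, a receptor of committed precursors, at 0.23, Bcas1, a marker of newly myelinating cells, at 0.06, and Cspg4 at -0.24. None of these members passed the test, and DESeq2's only member called in this comparison was Nkx6-2. The numbers above and below 0 were the same in each role without the library labelled APP_JQ1 replicate 4, with medians of 0.03, -0.06, 0.18, -0.09 and 0.19. Several of these small estimates depended on the processing, since 20 of the 33 members kept their direction under all 26 alternatives, and the sign turned for Fa2h in 6 of them, for Mog in 5, for Cnp in 3, for Olig1 and Aspa in 2 and for Bcas1 in 1.

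**Figure D3:**
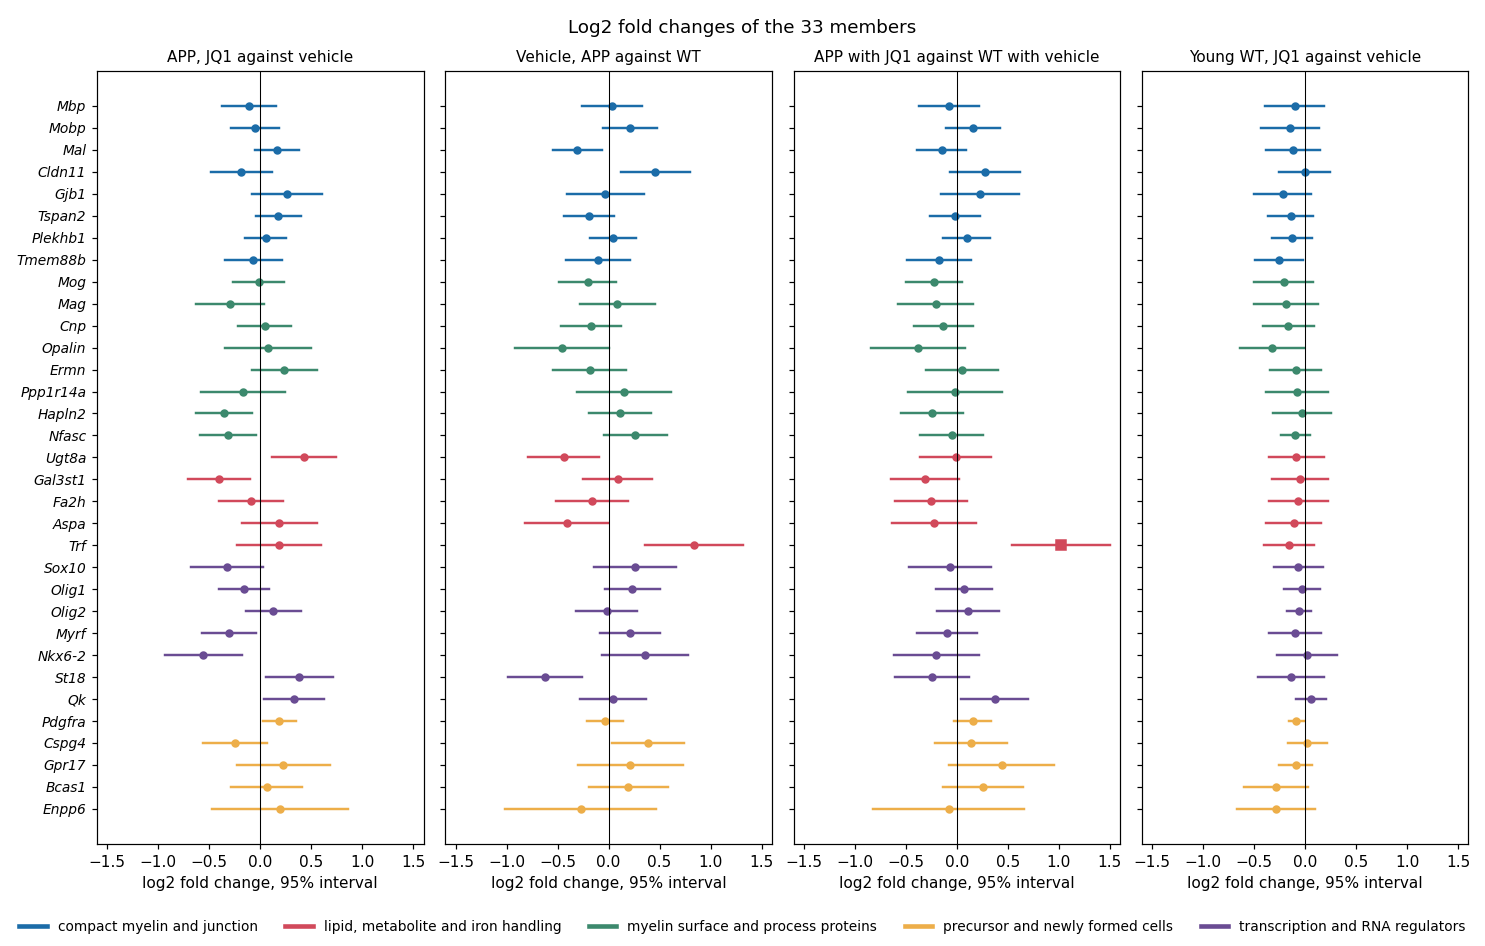
Log2 fold change with its 95% interval for the 33 members in the comparisons within the aged and within the young mice, where a square marks an adjusted p under 0.05. The only square is Trf in APP_JQ1 against WT_vehicle (log2 fold change 1.02), and the intervals of the other members in that comparison include 0 except that of Qk (0.04 to 0.70).

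The transgenic line was then set against wild type under vehicle. This comparison and the following one share the WT_vehicle mice, and each shares mice with the comparison of APP_JQ1 and APP_vehicle, so their values are given side by side and are not independent. In APP_vehicle against WT_vehicle 0 of 33 members passed in edgeR (background 2.57% of genes, lowest adjusted p 0.0646). At an unadjusted p under 0.05 there were 7 members (3 higher, 4 lower, against 14.4% of all genes). DESeq2, which called more genes in all than edgeR (totals in the last paragraph), called 2 members (Trf and St18), so 2.57% is not the background of those calls. Its share of all genes is not given here, so these calls are not read as results about the members. Trf ran from 36.1 to 68.1 CPM in APP_vehicle (median 39.1) and was 30.7, 20.8, 25.9 and 24.3 CPM in WT_vehicle, with no overlap. Its log2 fold change was 0.84 (SE 0.23, edgeR adjusted p = 0.0646). Cldn11 was the other member without overlap, at 135 to 212 CPM in APP_vehicle (median 146) and 119, 96.2, 123 and 117 CPM in WT_vehicle (log2 fold change 0.46, SE 0.16, edgeR adjusted p = 0.178). All mice of APP_vehicle being higher was seen for these 2 members of 33 and for 4.94% of all genes, and the reverse for 0 members and 2.05% of all genes. St18 ran from 10.2 to 19.3 CPM in APP_vehicle (median 16) and was 33.4, 22.8, 20.4 and 17.6 CPM in WT_vehicle. Only the last of these wild-type mice lay inside the APP_vehicle range, and the first stood well above the rest (log2 fold change -0.62, SE 0.17, edgeR adjusted p = 0.0650). Mbp differed by 0.03 (SE 0.14) and Pdgfra by -0.03 (SE 0.08) on the log2 scale, both with the groups overlapping.

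In APP_JQ1 against WT_vehicle 1 of 33 members passed in edgeR, against a background of 2.06% of genes (1.93% higher), and 2 had an unadjusted p under 0.05 (14.1% of all genes). That background moved with single mice, from the 349 genes called to 11 without WT_vehicle replicate 5 and to 651 without the library labelled APP_JQ1 replicate 4. No member separated the groups without overlap (2.55% of genes higher, 1.17% lower). Trf rose by 1.02 on the log2 scale (SE 0.23, 95% interval 0.54 to 1.5, 2.03-fold, edgeR adjusted p = 0.0272), from the wild-type values above to 28.1 to 68.7 CPM in APP_JQ1 (median 53.8). In APP_JQ1 5 of 6 mice lay above every WT_vehicle mouse, and replicate 5 (28.1 CPM) lay within their range. Without the library labelled APP_JQ1 replicate 4 the log2 fold change was 1.0 and the call was kept (edgeR adjusted p = 0.0276). The call was lost when any 1 of APP_JQ1 replicates 1, 2 and 3 or any 1 of the 4 WT_vehicle mice was left out, with an edgeR adjusted p of 0.0865 without WT_vehicle replicate 4, and the cause was not tested. Between APP_JQ1 and APP_vehicle Trf differed by 0.18 (SE 0.20, edgeR adjusted p = 0.673). Qk was at 230 to 351 CPM in APP_JQ1 (median 297), at 182 to 298 CPM in APP_vehicle (median 235), and at 329, 206, 193 and 196 CPM in WT_vehicle (APP_JQ1 against WT_vehicle 0.37, SE 0.16, edgeR adjusted p = 0.282). Here a single wild-type mouse, replicate 1, lay among the higher APP_JQ1 mice.

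The astrocyte and microglial genes moved with genotype in the same libraries, and their part in the Trf result was not tested. Of 10 astrocyte genes 2 rose in APP_vehicle and 4 in APP_JQ1 against WT_vehicle, and of 13 microglial genes 10 and 9 rose (2.49% and 1.93% of all genes). Leaving out the library labelled APP_JQ1 replicate 4 gave 3 and 5 astrocyte and 11 and 12 microglial genes called. The summed microglial level was 396 to 440 CPM in WT_vehicle, 869 to 1712 CPM in APP_vehicle and 440 to 1648 CPM in APP_JQ1, and the summed astrocyte level was 4589 to 4962, 6804 to 9759 and 5417 to 10779 CPM. None of the genes of endothelial and mural cells, meningeal fibroblasts, choroid plexus and ependyma, CA1 pyramidal neurons or dentate, CA3 and CA2 neurons was called in any of the 3 aged comparisons. In APP_vehicle the choroid plexus and ependyma genes summed to at most 106 CPM, and in WT_vehicle to 3190 CPM in replicate 4.

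In the young wild-type mice 0 of 33 members passed in limma on log2(FPKM + 0.1) with Benjamini-Hochberg adjustment over 18420 loci (lowest adjusted p 0.981), where 0.00543% of all loci did. At an unadjusted p under 0.05 limma gave 3 members, Pdgfra, Tmem88b and Opalin, against 4.65% of all loci. No member separated the groups without overlap (0.0109% of loci higher, 0.0163% lower). The study's own list of genes changed by JQ1 in wild-type mice does hold members, Bcas1 and Opalin, both lower. Its test was not repeated here. Estimates were below 0 for 30 of 33 members and for 48.9% of all loci, with a median log2 fold change of -0.10 for the members and 0.00 over all loci. Leaving out any 1 mouse gave 26 to 32 members below 0, with 0 members passing in each case. Members at an unadjusted p under 0.05 in limma then numbered 1 to 11, with 11 without youngWT_vehicle replicate 3. The shares of all loci in those fits are not given here. With the mean level of the other mature oligodendrocyte genes as a covariate, an alternative chosen after the values were seen, 10 of 33 were below 0 and the median was 0.03. Of the 33 other mature oligodendrocyte genes tested, 28 were themselves below 0 (median -0.10). The covariate thus carries a shift like that of the members, and this fit tests no cause. The 33 members varied together between these mice (median Pearson's r of all pairs 0.67, group means removed), so their estimates are not separate observations. Beside the members, 13 of 17 other precursor genes (median -0.06), 9 of 9 endothelial and mural genes (median -0.07) and 8 of 10 astrocyte genes (median -0.07) had estimates below 0. Above 0 were 13 of 21 other lineage regulators and 6 of 6 CA1 pyramidal genes. None of them was called, and their part in the result was not tested.

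The most abundant myelin transcript did not separate the young groups. Mbp ran from 784 to 1391 FPKM in youngWT_JQ1 (median 1245) and from 755 to 1532 FPKM in youngWT_vehicle (median 1292), a log2 fold change of -0.10 (SE 0.14, 95% interval -0.39 to 0.18, limma adjusted p = 0.981). Low values belonged to both treatments, being those of youngWT_JQ1 replicates 1 and 3 (784 and 948 FPKM) and youngWT_vehicle replicate 3 (755 FPKM). Pdgfra was at 9.80 to 10.9 FPKM (median 10.5) under JQ1 and at 10.8 to 11.6 FPKM (median 11) under vehicle, a small difference (-0.09, SE 0.04) between groups that barely overlapped. Opalin, a transmembrane protein of the oligodendrocyte surface, was at 6.80 to 14.1 FPKM (median 12) and 9.56 to 15.9 FPKM (median 13.7), a log2 fold change of -0.32 (SE 0.15). Tmem88b, a transmembrane protein enriched in the lineage, was at 13.6 to 22.7 FPKM (median 21.5) and 17.7 to 27.0 FPKM (median 24.4), a log2 fold change of -0.25 (SE 0.11).

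Whether the JQ1 effect differed between the transgenic and the young mice was tested as an interaction term in limma over 11910 genes present in both kinds of file, which held 31 of the members (Trf and Bcas1 could not be matched uniquely). None of the 31 passed, against 2.09% of all genes, with 7 at an unadjusted p under 0.05 (17.3% of all genes), and with separate fits 1 member, Pdgfra, passed. For Pdgfra the JQ1 effect was larger by 0.28 in the transgenic mice (SE 0.08, limma adjusted p = 0.0607). Without the library labelled APP_JQ1 replicate 4 the lowest limma adjusted p of a member was 0.0993, and 4 had an unadjusted p under 0.05. The share of all genes in that fit is not given here. For Nkx6-2 the term was -0.59 (SE 0.22, limma adjusted p = 0.156) and for St18 0.53 (SE 0.21, limma adjusted p = 0.192). Since age, sex, genotype, injections and pipeline differ together, the term compares experiments and not genotypes.

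Since no member passed edgeR's test after JQ1 in the transgenic mice, while DESeq2 called Nkx6-2, the spread between mice was read next. The SD of log2 CPM was larger in APP_JQ1 than in APP_vehicle for 28 of 33 members and for 55.8% of all genes, with a median ratio of 1.48 for the members and 1.08 over all genes. Without the library labelled APP_JQ1 replicate 4 it was larger for 30 of 33 members (53.7% of all genes; median ratio 1.47). For Mbp the SD was 25.1% of the mean in APP_JQ1 and 4.78% in APP_vehicle. In the young mice the SD was larger under JQ1 for 20 of 33 members and 57.1% of loci (median ratio 1.11 and 1.07). These counts are a description without a test, and the members share their source in each mouse.

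**Figure D4:**
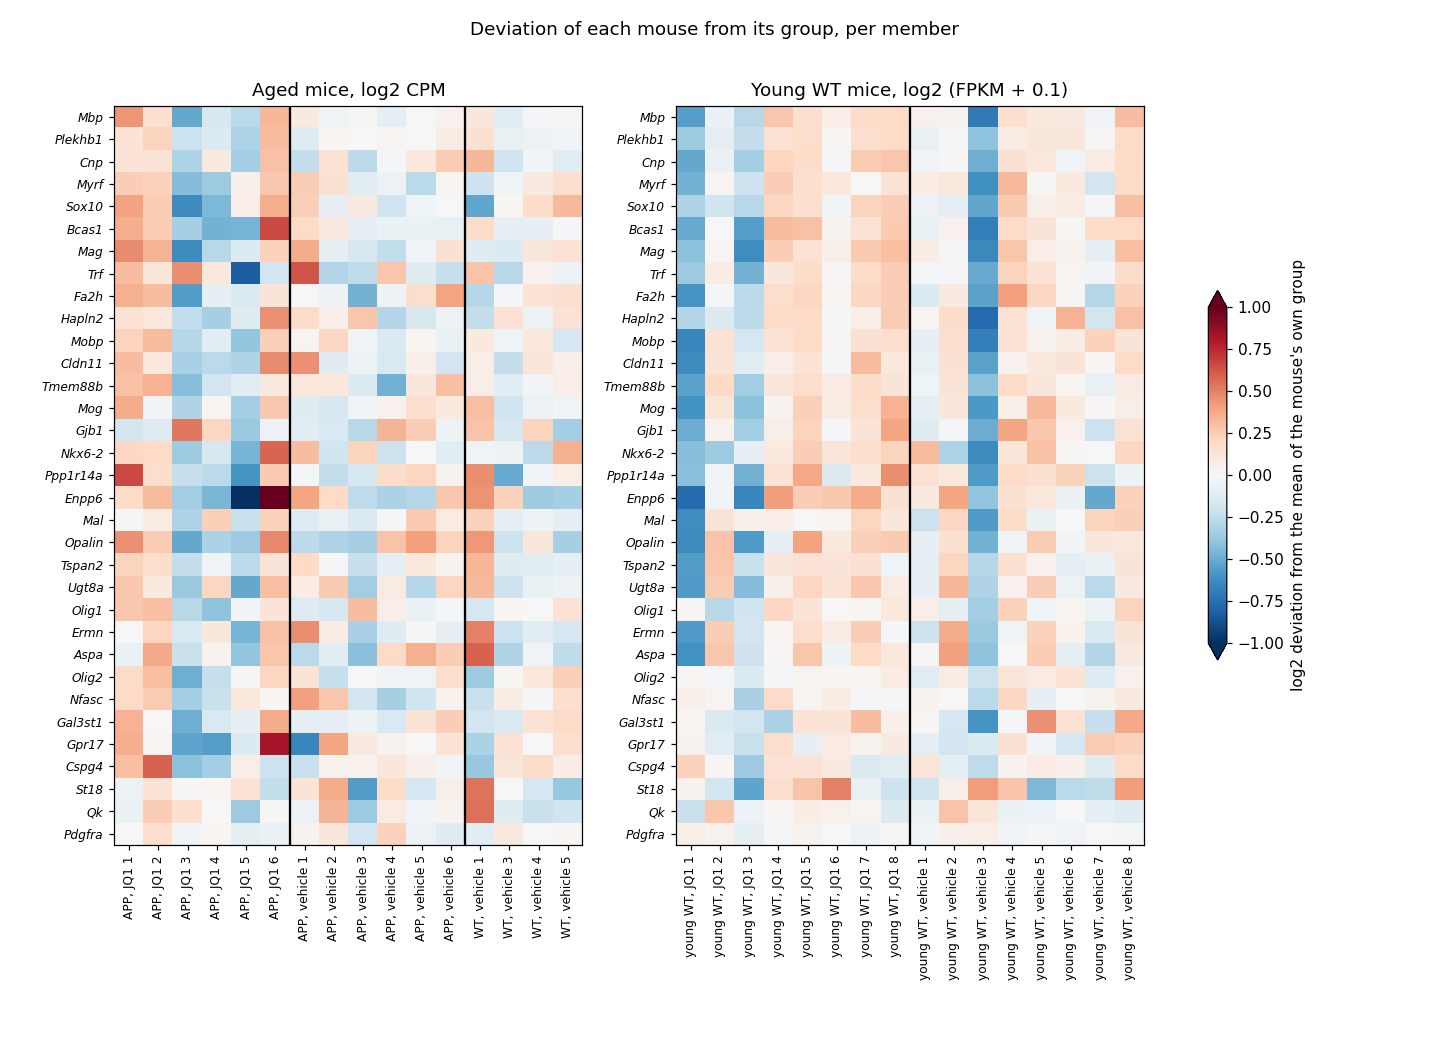
Deviation of each member from its group mean on the log2 scale in every mouse, with Mbp first and the other members ordered by their Pearson's r with Mbp in the young mice. In APP_JQ1 replicates 3, 4 and 5 most members lie below their group mean and in replicates 1, 2 and 6 most lie above, and youngWT_JQ1 replicates 1 and 3 and youngWT_vehicle replicate 3 stand out as low.

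Likeness between genes was measured as Pearson's r of their deviations from the group means on the log2 scale, over the 16 aged or the 16 young mice. The points share library, depth and dissection. Over the other 32 members the median r with Mbp was 0.64 in the aged mice (0.01 over all 16961 other genes) and 0.81 in the young mice (0.04 over 18419 loci), and r was above 0.5 for 24 and 27 of the 32 (8.51% and 7.37% of all). Over the 15 aged mice other than the library labelled APP_JQ1 replicate 4 the median of the 32 was 0.66, and r was again above 0.5 for 24. Among the 100 genes most like Mbp were 11 members in the aged mice and 17 in the young. The 10 genes most like Mbp in the aged mice included Osbpl5, Gatm, Icam2, Ctnnal1, St8sia2, Mag, Bcas1, 3110039I08Rik and Gpr160 (r 0.84 to 0.90), and in the young mice Plekhb1, Cnp, Prr18, Galnt6, Myrf, Sox10, Bcas1, Mag, Plekhg3 and Scn4b (r 0.93 to 0.96). Mag and Bcas1 were on both lists.

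Several members had an r near 0 or below. Pdgfra had an r of -0.03 in the aged and -0.44 in the young mice, St18 of -0.10 and 0.02, and Qk of 0.09 and -0.02. Gjb1, the gap junction protein connexin 32 of the sheath's outer loops, was at -0.37 in the aged and 0.86 in the young mice, and Trf at 0.13 in the aged mice, where its count rests on part of the gene. Qk and St18 were like each other in the aged mice (r = 0.75) and less so in the young (r = 0.16), a contrast that was not tested. The list of other precursor genes had a median r with Mbp of 0.15 in the aged and 0.12 in the young mice, and the list of other mature oligodendrocyte genes 0.53 and 0.67.

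**Figure D5:**
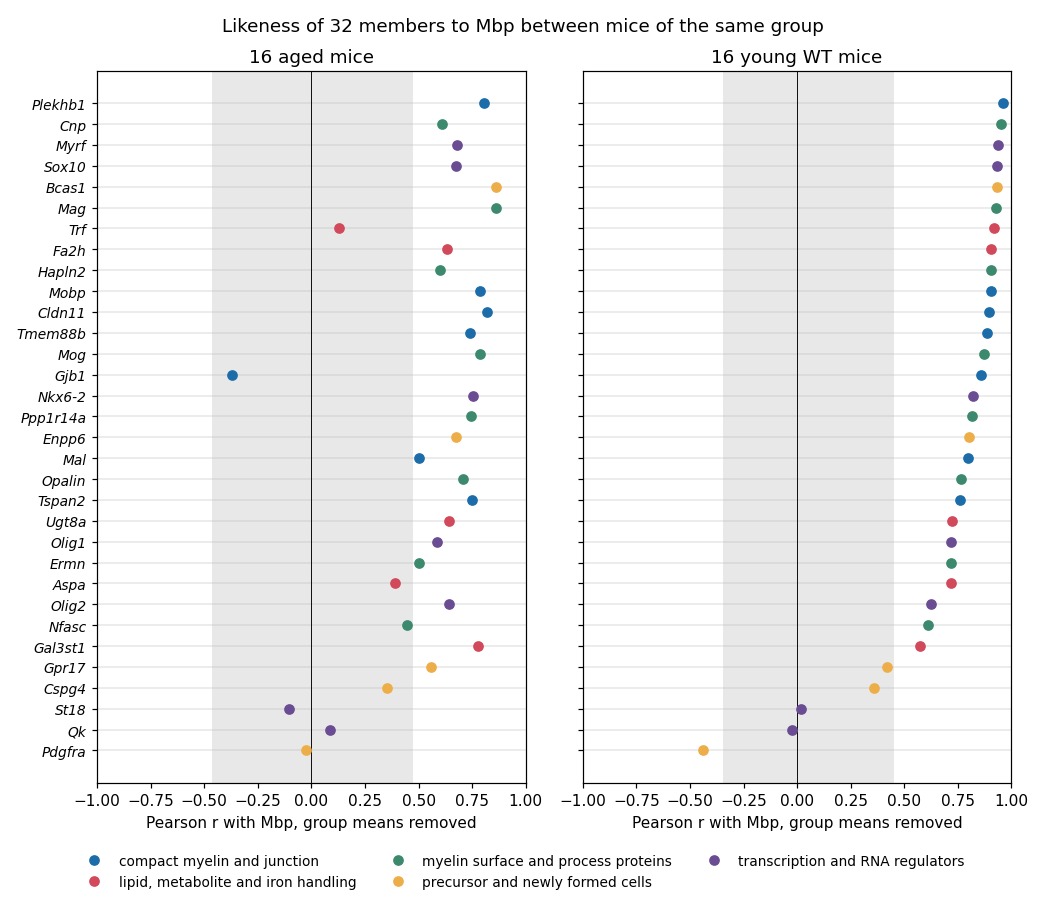
Pearson's r of each member's deviations with those of Mbp over the 16 aged and the 16 young mice, coloured by role, with a grey band from the 10th to the 90th percentile of all features. The aged members have a median of 0.64 and the young a median of 0.81. Pdgfra (-0.03 and -0.44), Qk (0.09 and -0.02) and St18 (-0.10 and 0.02) lie near 0 or below in both. Gjb1 is the lowest member in the aged mice (-0.37) and is at 0.86 in the young.

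Relations of Mbp with 6 genes in each experiment were tested by permutation within groups (100000 resamples, Benjamini-Hochberg over 12 relations). In the young mice (n = 16) Mbp was related to Mobp (r = 0.90, rho = 0.45, permutation adjusted p of r = 0.00552), Mog (r = 0.87, rho = 0.54, adjusted p = 0.00552) and Olig2 (r = 0.63, rho = 0.58, adjusted p = 0.0262). In the aged mice (n = 16) it was related to Mog (r = 0.79, rho = 0.69, permutation adjusted p of r = 0.0190), whereas Mobp (r = 0.79, rho = 0.72, adjusted p = 0.0714) and Olig2 (r = 0.64, rho = 0.63, adjusted p = 0.0819) missed the threshold. The aged values without the library labelled APP_JQ1 replicate 4 (n = 15) were r = 0.81 for Mog (permutation adjusted p = 0.0268), 0.78 for Mobp (adjusted p = 0.127) and 0.62 for Olig2 (adjusted p = 0.109). None of the 12 rank correlations passed after adjustment (lowest permutation adjusted p 0.101). The 2 mice farthest from the median of Mbp were APP_JQ1 replicates 1 and 3 in the aged and youngWT_JQ1 replicate 1 and youngWT_vehicle replicate 3 in the young experiment. Without them none of the relations passed after adjustment, so the 4 calls were made only with those mice included. The r itself was 0.54 for young Mobp, 0.63 for young Mog and 0.66 for aged Mog, and for young Olig2 it moved little, to 0.59. Within APP_JQ1 (n = 6) the r of Mbp was 0.89 with Mobp and 0.91 with Mog, and within APP_vehicle (n = 6), where Mbp varied little, 0.11 and -0.16. Over the 5 APP_JQ1 mice without the library labelled replicate 4 it was 0.89 and 0.94. No relation of Mbp with Pdgfra passed in either experiment (permutation adjusted p = 0.928 aged and 0.181 young), nor with the astrocyte gene Aqp4 (r = 0.52 and 0.06) or with Ttr (r = -0.26 and 0.18). For Aqp4 the young r joined 0.63 within youngWT_JQ1 and -0.77 within youngWT_vehicle. Without the 2 mice farthest from the median of Mbp, r with Aqp4 was 0.68 aged and 0.49 young (permutation adjusted p = 0.306 in each).

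The other genes of the lineage were read from 6 lists of their pathway, which share some genes and held 129 different genes tested in the aged mice. The lists were chosen with earlier results of these data known, so shares called beside the background are a description and no test of enrichment. In APP_JQ1 against APP_vehicle 3 of the 129 were called (2.33%, against 1.08% of all genes). Of 38 other mature oligodendrocyte genes 2 fell in APP_JQ1 against APP_vehicle by edgeR, where 0.466% of all genes did. Aatk, a kinase gene of neurons and oligodendrocytes, was at 217 to 247 CPM in APP_JQ1 and 278 to 326 CPM in APP_vehicle, with no overlap, and fell by 0.38 on the log2 scale (SE 0.07, edgeR adjusted p = 0.0159). Josd2, a deubiquitinase gene, was at 36.5 to 68.8 CPM and 60.4 to 84.6 CPM and fell by 0.57 (SE 0.13, edgeR adjusted p = 0.0394). Among 22 tested ligands, receptors and inhibitors of the lineage, Lingo1, a Nogo receptor partner that restrains myelination, was at 132 to 170 CPM and 180 to 293 CPM and fell by 0.48 (SE 0.11, edgeR adjusted p = 0.0389). All 3 calls were lost without the library labelled APP_JQ1 replicate 4 (edgeR adjusted p of 0.0539, 0.0984 and 0.0659), with fold changes of -0.35, -0.51 and -0.51. No member of the lists of 22 other lineage regulators, 19 tested precursor genes, 14 sphingolipid enzymes or 15 node and paranode genes was called in that comparison.

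Against WT_vehicle, 4 of these 129 genes passed in APP_vehicle by edgeR (3.10%, against 2.57% of all genes) and 3 in APP_JQ1 (2.33%, against 2.06%), shares near the background. Leaving out the library labelled APP_JQ1 replicate 4 gave 6 and 9 calls of 129, where 601 and 651 genes in all were called. Gpr37, a receptor that slows oligodendrocyte maturation, was at 51.4 to 73.6 CPM in APP_vehicle and 78.9 to 90.7 CPM in WT_vehicle and fell by 0.45 (SE 0.09, edgeR adjusted p = 0.0102), and by 0.40 in APP_JQ1 (edgeR adjusted p = 0.0259). Cd9, a tetraspanin of myelin that microglia also express, rose by 1.64 in APP_vehicle (edgeR adjusted p = 0.0352). Olfml3, listed among precursor genes and also expressed by microglia, rose by 1.33 in APP_vehicle and 1.21 in APP_JQ1 (edgeR adjusted p = 0.0103 and 0.0246). Igf1, a growth factor for the lineage that microglia can release, rose by 1.19 and 1.24 (edgeR adjusted p = 0.00828 and 0.00998). Without that library Gpr37, Olfml3 and Igf1 stayed called in APP_JQ1, with log2 fold changes of -0.43, 1.35 and 1.30 (edgeR adjusted p of 0.0144, 8.1e-04 and 8.9e-04). Called in APP_JQ1 against WT_vehicle only without it were Cd9 (1.62, edgeR adjusted p = 0.00738) and Lingo1 (-0.48, edgeR adjusted p = 0.0403). The same held for Gsn, Id4, Scrg1 and Tcf7l2. Among the young mice none of 116 genes tested was called by limma (0.00543% of all loci), and in the interaction 3 of 114 were called (2.63%, against 2.09% of all genes). These were Rtn4r, the Nogo receptor (-0.69, limma adjusted p = 0.0119), Lingo1 (-0.61, adjusted p = 0.0213) and Sptbn4, the spectrin of nodes (-0.58, adjusted p = 0.0365). Without the library labelled APP_JQ1 replicate 4 the limma calls of Rtn4r and Lingo1 were kept (adjusted p of 0.0286 and 0.0280) and that of Sptbn4 was lost (0.0757).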

How the data were processed

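CA1 RNA of 33 mice was sequenced, and 32 have values here (WT_vehicle replicate 2 was not analysed here). For the aged mice the authors deposited raw counts per gene, made with STAR (at most 2 mismatches) and HTSeq. For the young mice the authors deposited FPKM per locus from Cufflinks and Cuffdiff, and the submitters' notes also name CASAVA 1.8.2, TopHat and mm10. Whether counting used strand is not given in the sources used here. Counts were fitted in edgeR 4.0.16 (TMM, filterByExpr, robust quasi-likelihood test, 3 groups in 1 fit), and FPKM in limma 3.58.1 (trend, robust) on log2(FPKM + 0.1) for loci with at least 0.5 in at least 8 mice, both tested on simulated data. A fold change on the log2(FPKM + 0.1) scale understates the change of low loci. DESeq2 1.42.0 and sva 3.50.0 gave alternatives. Adjusted p-values are Benjamini-Hochberg values with a threshold of 0.05. Those of the group comparisons rest on a difference set against the spread between these mice. Rows that name no gene were left out of library sizes: reads outside exons were 15.4% to 26.9% per aged library. Genes with values per mouse were Mbp, Pdgfra, every called member and the 3 members with the smallest p in each comparison; genes of the other lists were named where called. The members and lists were chosen with earlier results of these data known. Same-numbered mice were not treated as pairs in the main fits (APP groups r -0.11 to 0.34, young -0.07 to 0.10). Lengths and positions are GENCODE on GRCm38.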

Additional observations from a re-analysis of the deposited data

Results flagged for a closer look

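Among 165 combinations of a member and a group, 15 held 1 mouse that stood apart from its group, in that its gap to the nearest other mouse, divided by the range of the group, was above Dixon's 95% critical value. For independent groups of values chance gives about 1 in 20 by this rule. The members share their mice, so that rate does not apply to these 15 combinations. In youngWT_vehicle, 6 of these were low values of replicate 3, a mouse that was low for several myelin genes at once. Its Mbp was 755 FPKM against 1204 to 1532 in the other 7 mice, its Mobp 202 against 307 to 382, and its Cldn11 50.2 against 69.4 to 83.4. The same mouse had 97.6 FPKM of Cnp (134 to 157 in the others), 102 FPKM at the Trf locus (141 to 168) and 35.8 FPKM of Bcas1 (54.9 to 66.3). In WT_vehicle, replicate 1 was high for Mal (238 CPM against 190 to 195), Tspan2 (147 against 107 to 109), Ermn (83.5 against 50.6 to 54.2) and Qk (329 against 193 to 206). Ermn encodes ermin, a cytoskeletal protein of oligodendrocyte processes.

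The other 5 were single values. Mal was low in youngWT_JQ1 replicate 1 (56.6 FPKM), and Nfasc was low in youngWT_JQ1 replicate 3 (25.9 FPKM). APP_vehicle replicate 1 was high for Cldn11 (212 CPM) and low for Plekhb1 (312 CPM). Enpp6 was high in APP_JQ1 replicate 6 (8.86 CPM against 1.6 to 4.21 in the other 5).

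The JQ1 effect differed between the transgenic and the young mice, by the interaction term in limma, for Rtn4r (-0.687), Lingo1 (-0.606), Sptbn4 (-0.577) and the interneuron gene Sst (-0.464), of which Sptbn4 and Sst were no longer called without the library labelled APP_JQ1 replicate 4.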

How the results depend on the processing

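Over all alternatives 20 of 33 members kept their direction in APP_JQ1 against APP_vehicle, 17 in APP_vehicle against WT_vehicle, 20 in APP_JQ1 against WT_vehicle, 11 in the young mice and 28 of 31 in the interaction. Of 614 recomputed fold changes of the members given with values per mouse 10 turned sign, all of them values of Mbp or Pdgfra near 0. The count of members called was 1 in place of 0 for APP_JQ1 against APP_vehicle under DESeq2. For APP_vehicle against WT_vehicle it was 2 in place of 0 under DESeq2 and 1 under 1 surrogate variable, under correction for GC and length, and with only the 2 groups fitted. For APP_JQ1 against WT_vehicle it was 0 in place of 1 with no filter on low counts, where more genes were tested, under the replicate block, and under the block with GC and length. For the interaction it was 1 in place of 0 with separate fits. Leaving out 1 mouse gave 0 to 1 members in the last 3 comparisons. Beyond these constructions the cause was not tested.

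Mbp in APP_vehicle against WT_vehicle was -0.022 under the replicate block, -0.050 under GC and length and -0.073 under both, and -0.0062 to 0.064 without 1 mouse. Without 1 mouse it was -0.18 to 0.0033 in APP_JQ1 against WT_vehicle and -0.13 to 0.056 in the interaction, and Pdgfra in APP_vehicle against WT_vehicle was -0.092 to 0.0026. Mbp in the young mice was 0.10 with the oligodendrocyte covariate, chosen after the values were seen. Without the 2 mice farthest from the median of Mbp, r was 0.66 with Mog in the aged mice and 0.54 with Mobp, 0.63 with Mog, 0.59 with Olig2 and 0.19 with Pdgfra in the young.

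Whether same-numbered mice shared a preparation day was not tested. The mean r of same-numbered APP_JQ1 and APP_vehicle mice was 0.12, against -0.02 for other numbers. In the young groups it was 0.03 against -0.004. Of 6 APP_JQ1 and APP_vehicle pairs 3 correlated above 0.1 and 3 mice were most like their own number, and of 8 young pairs 1 and 2. The block gave 87, 35 and 21 calls over all genes in place of 184, 436 and 349 (in the order of the aged comparisons above), DESeq2 749, 792 and 790, GC and length 42, 452 and 517, and 1 surrogate variable 98, 660 and 586. With only the 2 groups fitted the 2 comparisons with WT_vehicle gave 679 and 227, the block with GC and length gave 33, 29 and 36, the oligodendrocyte covariate gave 700 in APP_JQ1 against WT_vehicle, and separate fits gave 484 for the interaction. Leaving out 1 mouse gave 65 to 446, 154 to 601 and 11 to 651 genes in the aged comparisons and 101 to 433 in the interaction. In the young mice 0 loci in place of 1 were called under the block, with no filter and with the covariate. The 95% intervals of members in APP_JQ1 against APP_vehicle reached from -0.93 to 0.86 on the log2 scale, and the depth of the young files is unknown.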
